A study of Mus musculus with 12 samples.

Results

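The oncofetal and liver cancer marker genes described here are 10 mouse genes: Afp, Golm1, Igf2, H19, Peg3, Mest, Dlk1, Gpc3, Cd24a and Ly6d. They were followed through every probe set of the Affymetrix MOE430A array that carries a single gene symbol, that of 1 of these genes. That gave 18 probe sets for 9 of the 10 genes, out of 22626 probe sets for 12393 genes on the array. H19 has no such probe set, because its probe set also names Mir675, so no value is given for it. Ly6d was chosen by its large rise in the signals of these same livers, so its knockout values are a description and were not tested. The other 9 are known markers, named with earlier results of these data in view.

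Liver RNA from 12 male mice was hybridised, 1 array per mouse. The genotypes were Mdr2-KO, lacking the phospholipid transporter now named Abcb4, and heterozygous control mice, which carry 1 knockout allele themselves. Each genotype was sampled with 3 mice at 3 months and 3 other mice at 12 months, giving the groups Het_3M, KO_3M, Het_12M and KO_12M. The knockout is a model of hepatocellular carcinoma that follows chronic bile duct inflammation. The labels give liver as the tissue and do not say whether a sample held tumour, and they name no strain. For mouse 1 in both 3 month groups, 1 label field says 12 months, against 3 months in the title, the age entry and the array's own record. The title was followed.

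Oncofetal genes are made in the fetal liver, are silenced after birth and can return in liver tumours. Alpha-fetoprotein (Afp) is the fetal relative of albumin, and Igf2 and H19 are neighbouring imprinted genes that share enhancers, 1 encoding a growth factor and the other a long noncoding RNA. Glypican 3 (Gpc3) and Golgi membrane protein 1 (Golm1, also called GP73) are used in people as tissue and serum markers of hepatocellular carcinoma.

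The values are MAS 5.0 signals, an intensity without a fixed unit. Testing was limited to the 12977 probe sets that matched or exceeded their array's median signal on 3 arrays or more. Of the 18 member probe sets 6 passed, and each of them is named below with its test, except that of Ly6d, which is only described. The other 12 were too dim to test and are given as levels. Signals are given as mean ± SD over 3 mice, and log2 changes ± the standard error of limma, taken on log2(signal + 16), which understates the change of dim probe sets. Changes with a p under 0.05 after Benjamini-Hochberg adjustment over all 12977 were called. Levels of different probe sets are not compared.

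Abcb4, the targeted gene, was lower in both knockout groups. In KO_3M its signal was 320.7 ± 56.8 against 723.3 ± 43.0 in Het_3M, and in KO_12M it was 289.6 ± 44.5 against 622.8 ± 45.8. All 13 hepatocyte markers listed were on the array and their summed signal lay between 71777.6 and 84106.7 in the first 3 groups and between 46322.8 and 70100.8 in the older knockout livers. Scanning took 3 sessions, and no session held both genotypes of 1 age. The genotype effect at an age therefore cannot be fully told apart from the session. The KO_3M arrays shared their session only with mouse 3 of KO_12M, so fits with session as a block reach KO_3M only through that array. Mouse 3 of KO_12M stood apart, with a correlation of 0.952 with another array of its group, the lowest within any group. The ratio of 3 prime to 5 prime actin signals, which rises as RNA breaks down, averaged 7.0 and 4.92 in the Het_3M and KO_3M groups and 3.64 and 2.79 in the Het_12M and KO_12M groups. In whole liver RNA, fewer cells of a type and less RNA per cell cannot be told apart.

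**Figure D1:**
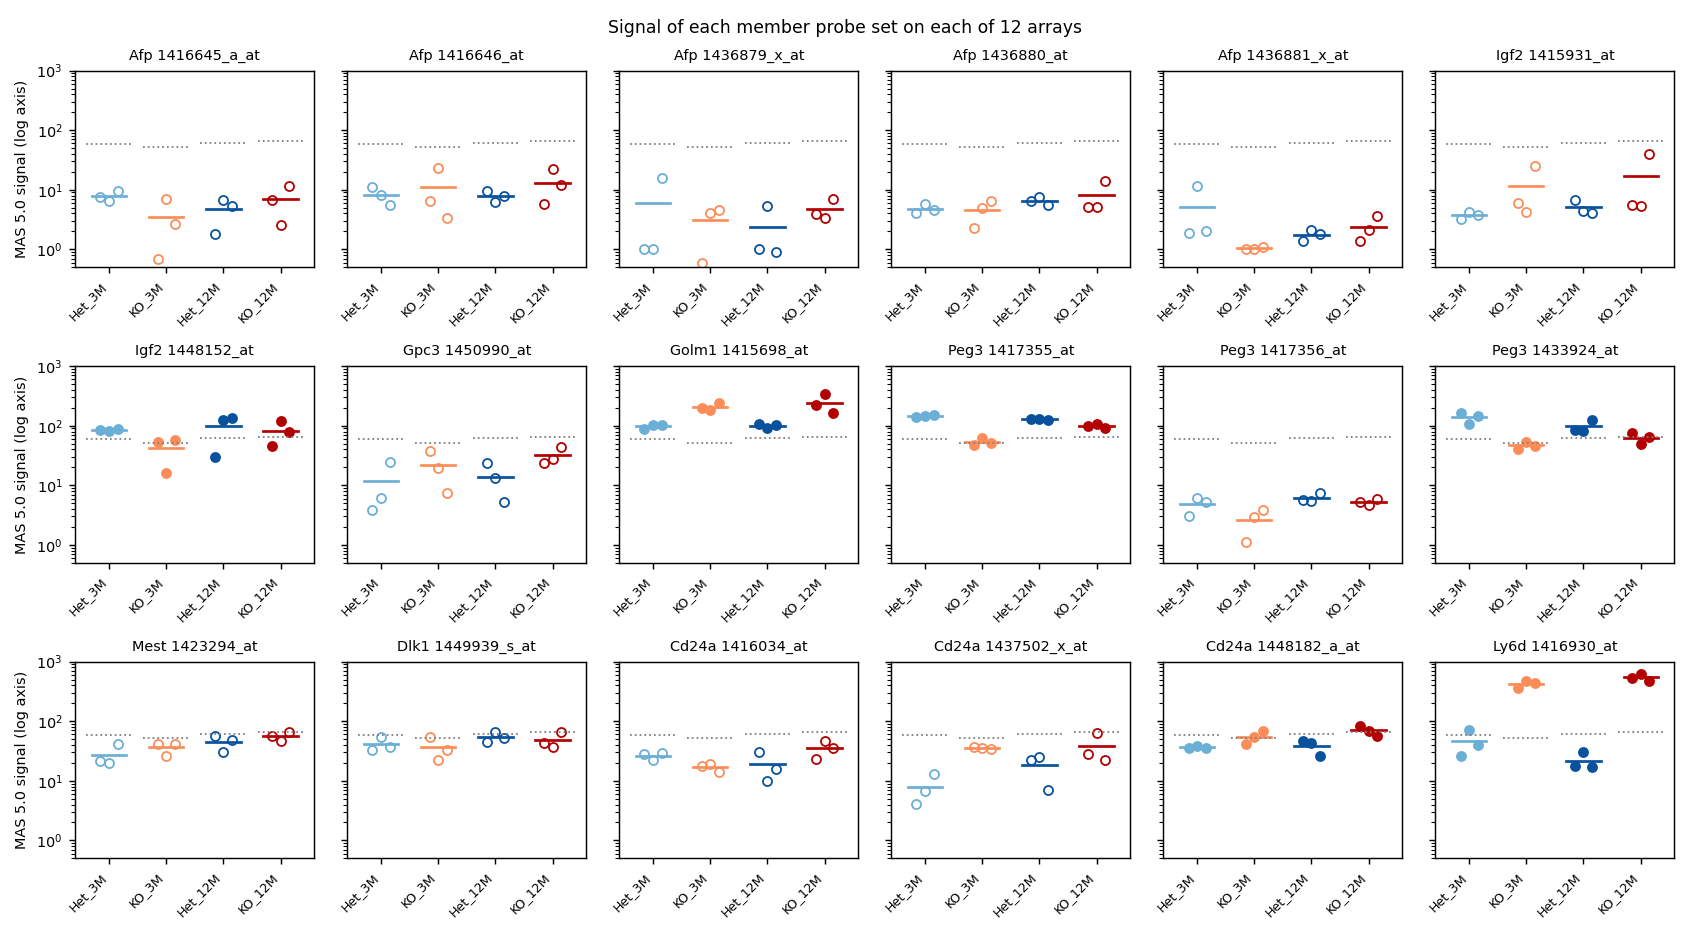
MAS 5.0 signal (log axis) of each of the 18 member probe sets on each of the 12 arrays, by group. Points are mice, short lines are group means and dotted lines are the mean array median of the group, with filled points for the 6 tested probe sets and open points for the 12 that were too dim. Ly6d and Golm1 are higher in knockout livers at both ages, Peg3 1417355_at and 1433924_at are lower, and all 5 Afp probe sets stay under the dotted lines.

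Among the tested members other than Ly6d, 5 probe sets of 4 genes, Golm1 was called higher and both Peg3 probe sets lower in knockout livers at 3 months, and Igf2 and Cd24a did not pass. Over all tested probe sets, 21.1% were called at 3 months, 9.57% higher and 11.6% lower. At 12 months Golm1 was called higher and the other 4 probe sets did not pass, against 9.46% of all tested probe sets called, 5.86% higher and 3.6% lower. The median log2 change of the 5 was -0.90 at 3 months and -0.09 at 12 months, against -0.06 and -0.0035 over all tested probe sets. Scaling each array to a common median instead put the median of all tested probe sets at 0.11 and -0.08.

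Counted by overlap, the 3 knockout arrays lay wholly above the 3 heterozygous arrays for 4 of the 18 member probe sets at 3 months and wholly below for 5. The same was seen for 35.7% of all probe sets in 1 direction or the other. At 12 months 4 lay above and 2 below, against 22% of all probe sets. Ly6d, chosen by its rise, is among those above at both ages, so its place in these counts was fixed in advance.

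**Figure D2:**
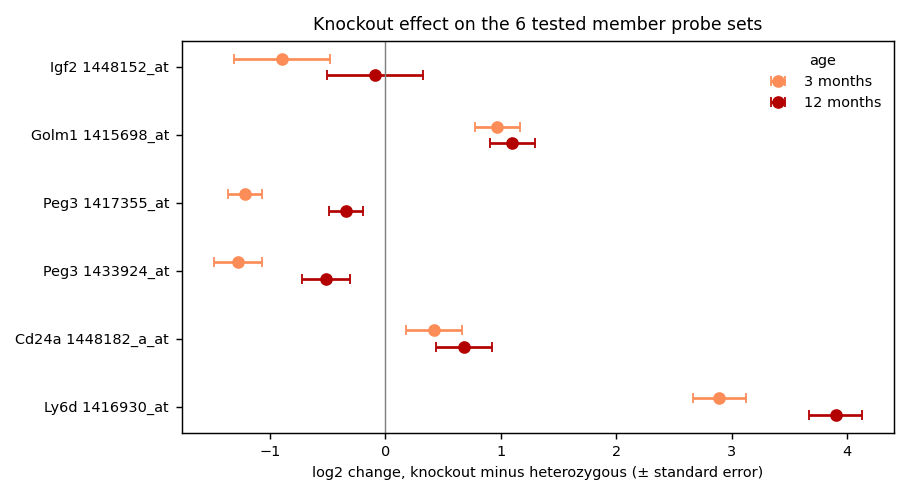
Log2 change, knockout minus heterozygous, of the 6 tested member probe sets at 3 months (orange) and 12 months (red), with bars of 1 limma standard error (n = 3 mice a group). Golm1 lies near 1 at both ages, both Peg3 probe sets lie below -1 at 3 months and nearer to 0 at 12 months, and Ly6d, shown as a description, lies at 2.89 and 3.90.

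Golm1 rose in knockout livers at both ages, to 2.12 times the heterozygous mean at 3 months and 2.42 times at 12 months. It encodes a Golgi membrane protein that is cut and secreted, and its single probe set, 1415698_at, reached the array median on all 12 arrays. The gene lies on chr13:59634996-59675784 of GRCm38.p6. The promoters of Golm1, of Peg3 and of Afp are printed here because these are the tested members called higher and lower and the best known oncofetal gene of the list. Each runs from 250 bases before to 50 bases after the annotated start in the RefSeq annotation of GRCm38.p6, 5′ to 3′ on the gene's strand. RefSeq promoters were matched for 7 of the 10 genes. Capitals mark matches on either strand to TATAAA, the TATA box, to GTTAAT, part of an HNF1 site, to the GC box GGGCGG, to the CCAAT box, to the AP-1 site TGANTCA and to TGACG, part of a cyclic AMP response element. The Golm1 window is chr13:59675735-59676034 on the minus strand.
Golm1: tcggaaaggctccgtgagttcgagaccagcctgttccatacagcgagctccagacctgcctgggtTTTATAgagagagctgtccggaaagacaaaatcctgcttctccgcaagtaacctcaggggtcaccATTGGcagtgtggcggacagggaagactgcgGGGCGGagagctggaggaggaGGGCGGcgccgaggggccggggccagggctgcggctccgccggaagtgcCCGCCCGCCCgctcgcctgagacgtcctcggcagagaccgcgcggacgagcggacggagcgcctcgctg

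The Golm1 window held 30 CpG dinucleotides, more than 88.32% of the 32817 RefSeq promoters of that length, whose median was 7. GGGCGG matched 4 times, at positions -89 and -68 and, on the other strand, at -19 and -15 from the start, the last 2 of them overlapping. That hexamer was present in 35.63% of all promoters. CCAAT matched once, on the other strand at -120, as it did at least once in 37.39%. TATAAA matched at -185 on the other strand and is found in 13.62%.

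At 3 months the Golm1 signal was 89.7, 101.9 and 101.5 in the heterozygous mice and 201.2, 180.8 and 240.7 in the knockout mice. At 12 months it was 106.3, 93.1 and 100.9 against 223.5, 336.2 and 166.4. Every knockout liver was above every heterozygous liver, and the heterozygous livers of both ages lay within a narrow band. The log2 change was 0.97 ± 0.20 at 3 months (limma adjusted p = 0.00276) and 1.10 ± 0.20 at 12 months (limma adjusted p = 0.00173). The knockout effect did not differ between the ages beyond error (0.13 ± 0.28, limma adjusted p = 0.864), and neither did the ages within a genotype (0.03 in heterozygous and 0.16 in knockout livers).

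With scan session as a block the Golm1 change was 1.59 at 3 months (adjusted p = 0.0167). At 12 months it was 1.17 and no longer called (adjusted p = 0.117). The value at 3 months reaches the KO_3M arrays only through mouse 3 of KO_12M, which read 166.4. A part of the session in the change was not tested. Within the session shared by KO_12M and Het_3M, the 2 knockout livers read 223.5 to 336.2 and the 2 heterozygous livers 101.5 to 101.9, although they differ in age. Without mouse 3 of KO_12M the change at 12 months was 1.32. Markers of 4 cell classes moved with Golm1. The summed signal of bile duct and progenitor markers went from 2733.5 to 3014.7 in Het_3M to 6183.3 to 7030.0 in KO_3M, and from 2327.8 to 3504.4 in Het_12M to 4662.0 to 6712.9 in KO_12M. Most of this sum was Krt8 and Krt18, which averaged 1041.1 and 1402.5 in Het_3M and 2479.5 and 3128.5 in KO_3M. Krt7, Krt19 and Sox9 averaged higher in knockout livers at both ages but were too dim to test. Cftr, also too dim, averaged lower at both ages. Of the 17 bile duct and progenitor markers 14 were on the array, and none was listed at 0 on every array. Of the 6 tested, 5 were called higher at 3 months and 3 at 12 months, none lower. Among those called, Krt23 (means of 12.5 in Het_3M and 17.1 in Het_12M) and Epcam (12.4 and 14.0) passed the filter only through knockout arrays. Their calls give no support for a difference. Over all tested genes, 9.67% were called higher and 11.8% lower at 3 months, and 6.04% and 4.07% at 12 months.

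The stellate cell and fibroblast markers went from 1603.6 to 1752.3 in Het_3M to 3489.9 to 4443.1 in KO_3M, and from 1614.5 to 2119.4 in Het_12M to 3271.5 to 3774.0 in KO_12M. Of the 11 tested, 7 were called higher at 3 months and 6 at 12 months. The macrophage markers went from 2273.9 to 2579.1 in Het_3M to 4583.6 to 7768.2 in KO_3M, and from 2584.1 to 2960.5 in Het_12M to 4891.2 to 5466.9 in KO_12M, with 8 and 5 of the 10 tested called higher and 1 lower at 3 months. The proliferation markers went from 641.4 to 668.1 in Het_3M to 1404.6 to 2090.1 in KO_3M, and from 592.4 to 709.6 in Het_12M to 1182.3 to 1325.3 in KO_12M, with 5 of the 7 tested called higher at each age. The shares of all tested genes called higher were 9.67% at 3 months and 6.04% at 12 months, and of those called lower 11.8% and 4.07%. Of the proliferation markers, Top2a averaged 6.9 in Het_3M and 12.5 in Het_12M, so it passed the filter only through knockout arrays. Mcm5 (5.5 in Het_3M) and Cdk1 (27.9 in Het_3M and 42.4 in Het_12M) also averaged under the medians of those arrays. Calls of such genes give no support for a difference. The genotypes did not overlap in any of the 4 sums at either age. Their part in the Golm1 change was not tested.

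Genes of Golgi glycosylation, the compartment where Golm1 resides, were not called. Of the 12 tested, 0 passed limma's threshold at either age, against 21.4% of all tested genes at 3 months and 10.1% at 12 months. Their median log2 changes were 0.02 at 3 months and -0.01 at 12 months.

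Peg3 fell in young knockout livers. It is a paternally expressed imprinted gene that encodes a large zinc finger protein, lies on chr7:6703892-6730462 and has 3 probe sets, of which 1417355_at and 1433924_at were tested. Its promoter window is chr7:6730370-6730669 on the minus strand and has a GC content of 61.33%, against a median of 52.67% over all promoters, with 13 CpG dinucleotides.
Peg3: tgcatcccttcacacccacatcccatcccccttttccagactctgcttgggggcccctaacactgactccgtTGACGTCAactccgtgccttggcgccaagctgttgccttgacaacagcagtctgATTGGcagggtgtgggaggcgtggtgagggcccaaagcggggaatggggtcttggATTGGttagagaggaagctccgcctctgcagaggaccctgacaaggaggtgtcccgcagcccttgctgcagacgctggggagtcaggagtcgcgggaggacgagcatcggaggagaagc

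In that window CCAAT matched on the other strand at -124 and -69. TGACG, present in 20.79% of all promoters, matched at -178 and on the other strand at -175, the 2 matches overlapping in 1 palindrome.

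The signal of Peg3 1417355_at was 139.3, 146.2 and 149.6 in Het_3M and 46.9, 61.7 and 51.4 in KO_3M. In older mice it was 130.9, 131.8 and 123.9 in Het_12M and 97.7, 105.1 and 92.4 in KO_12M. Knockout livers were below heterozygous livers at both ages with no overlap, and the gap was wider in the young mice. The knockout mean was 36.8% of the heterozygous mean at 3 months and 76.4% at 12 months. The log2 change was -1.22 ± 0.15 at 3 months (limma adjusted p = 4.69e-05). At 12 months it was -0.34 ± 0.15 and did not pass (limma adjusted p = 0.172).

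The second probe set, 1433924_at, gave the same order. Its signal was 161.4, 107.1 and 145.5 in Het_3M against 41.2, 53.5 and 46.2 in KO_3M, and 85.6, 81.7 and 126.4 in Het_12M against 75.7, 49.5 and 65.0 in KO_12M. The knockout arrays again lay wholly below the heterozygous arrays at each age. The log2 change was -1.28 ± 0.21 at 3 months (limma adjusted p = 0.000558) and -0.51 ± 0.21 at 12 months (limma adjusted p = 0.145). The third probe set, 1417356_at, was dim, between 1.1 and 7.3 on all arrays, and its groups overlapped at both ages.

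The age differences of Peg3 1417355_at had opposite signs in the 2 genotypes. Every KO_12M liver was above every KO_3M liver, and every Het_12M liver was below every Het_3M liver. In knockout livers the rise from 3 to 12 months was 0.73 ± 0.15 (limma adjusted p = 0.0103), in a comparison where 8.85% of all tested probe sets were called. In heterozygous livers the change was -0.15 (limma adjusted p = 0.669), where 1.14% were called. The test of the difference between the ages' knockout effects gave 0.88 ± 0.21 and missed the threshold (limma adjusted p = 0.0594), which 0.717% of all tested probe sets passed. On 1433924_at the difference was 0.76 ± 0.29 (limma adjusted p = 0.225), and the ages overlapped in each genotype.

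With scan session as a block, the change at 3 months was -1.13 on 1417355_at and still called (adjusted p = 0.0409). On 1433924_at it was -1.23 and no longer called (adjusted p = 0.0954). These block estimates reach the KO_3M arrays only through mouse 3 of KO_12M, an array of another age. They therefore cannot show whether the fall holds within a session. The rise with age in knockout livers was lost with that block (0.65, adjusted p = 0.0793), with quantile normalization (0.48, adjusted p = 0.0768), with only the groups compared in the fit (0.73, adjusted p = 0.0634) and with the actin ratio as a covariate (0.56, adjusted p = 0.193). Low signals as a whole were lower on the KO_3M arrays, whose medians were 49.9 to 54.5 against 58.1 to 60.4 in Het_3M. Among all tested probe sets 23.1% lay wholly below the heterozygous arrays in KO_3M and 16.4% wholly above. Scaled to a common array median, Peg3 1417355_at still changed by -1.08 at 3 months (adjusted p = 0.000155).

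**Figure D3:**
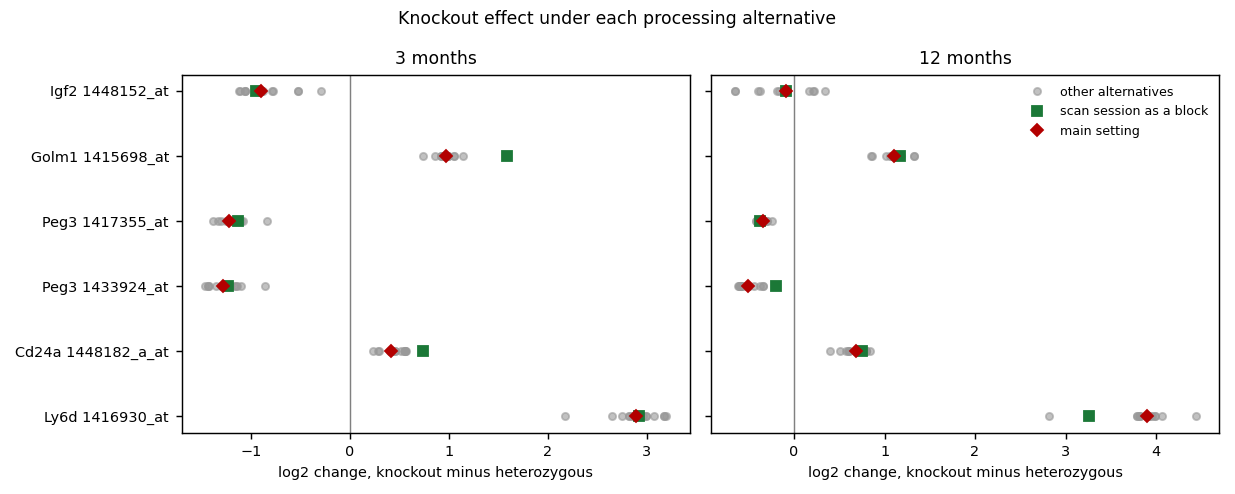
Log2 change, knockout minus heterozygous, of the 6 tested member probe sets at 3 months (left) and 12 months (right) under the processing used (red diamond), with scan session as a block (green square) and under the other alternatives (grey). The sign of the change at 3 months was the same under every alternative for each of the 6, and at 12 months Igf2 lies on both sides of 0.

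Other tested imprinted genes did not follow Peg3 as a group. Of 36 on the array 19 were tested, and the rest were too dim. Among the dim ones, Zim1, Usp29, Nnat and Snrpn averaged lower in KO_3M than in Het_3M, while Sgce and Plagl1 averaged higher. Of 19 other tested imprinted genes, 2 were called higher and 2 lower at 3 months, against 9.67% and 11.8% of all 8228 tested genes with 1 probe set each, and 1 was higher and 0 lower at 12 months, against 6.04% and 4.07%. Their median log2 changes were -0.008 and -0.06. The matrix proteoglycan decorin (Dcn), which also marks stellate cells, was higher at both ages (1.00 ± 0.15 each, limma adjusted p = 0.000253 and 0.000387). The transporter gene Slc22a18 was higher at 3 months (0.39 ± 0.13, limma adjusted p = 0.0429). Dopa decarboxylase (Ddc) was lower at 3 months (-0.68 ± 0.19, limma adjusted p = 0.0178), as was the ubiquitin ligase gene Ube3a (-0.54, limma adjusted p = 0.0263), named after its value was seen.

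Mest and Dlk1, also expressed from the paternal copy, stayed too dim to test. Mest, on chr6:30733506-30748466, encodes a protein of the hydrolase fold, and its signal was 21.6, 19.6 and 40.8 in Het_3M, 41.0, 25.8 and 42.3 in KO_3M, 55.9, 30.2 and 47.8 in Het_12M, and 57.4, 45.8 and 65.7 in KO_12M. Genotypes overlapped at both ages, and every KO_12M liver was above every KO_3M liver. Dlk1, on chr12:109452485-109463336, encodes a membrane protein of fetal hepatoblasts, and its signal was 32.9, 54.6 and 36.4 in Het_3M, 54.7, 22.4 and 33.2 in KO_3M, 44.5, 64.8 and 51.4 in Het_12M, and 43.0, 37.4 and 66.2 in KO_12M. All groups of Dlk1 overlapped. Its imprinted neighbour Meg3, a long noncoding RNA, was tested and did not pass (-0.06 at 3 months and -0.29 at 12 months, limma adjusted p = 0.829 and 0.351).

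Igf2 did not pass in any comparison. The gene, on chr7:142650768-142666816, encodes the fetal insulin-like growth factor, and H19 lies beside it at chr7:142575530-142578146. On the tested probe set 1448152_at the signal was 86.4, 82.2 and 88.3 in Het_3M, 52.3, 16.3 and 57.3 in KO_3M, 29.3, 126.1 and 136.4 in Het_12M, and 45.6, 121.8 and 79.5 in KO_12M. The young knockout livers were all below the young heterozygous livers, and the 12 month groups spread widely and overlapped. The log2 change was -0.90 ± 0.41 at 3 months (limma adjusted p = 0.132) and -0.09 at 12 months (limma adjusted p = 0.929). The other Igf2 probe set, 1415931_at, lay between 3.2 and 40.0. Its 2 highest readings were in mouse 3 of KO_12M at 40.0 and mouse 3 of KO_3M at 25, and its groups overlapped.

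Other genes of the insulin-like growth factor system were called in each direction. Of 18 other tested genes, 2 were called higher and 6 lower at 3 months, against 9.67% and 11.8% of all tested genes, and 2 higher and 3 lower at 12 months, against 6.04% and 4.07%. The binding protein gene Igfbp7 was higher at both ages (1.72 ± 0.17 and 1.54 ± 0.17, limma adjusted p = 5.42e-06 and 2.25e-05). Igfbp1, named after its values were seen, was higher too (1.48 and 1.80, limma adjusted p = 0.0169 and 0.0096).

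At 3 months the receptor genes Insrr and Igf1r were lower (-2.46 ± 0.30 and -1.37 ± 0.23, limma adjusted p = 4.77e-05 and 0.000761). Insrr averaged 102.1 in Het_3M and 5.5 in KO_3M. The binding protein genes Igfbp5 and Igfbp2 were lower as well (-1.09 ± 0.25 and -0.72 ± 0.20, limma adjusted p = 0.00633 and 0.0167). At 12 months the 3 lower genes were Igfals, the acid labile subunit (-1.04 ± 0.20), the growth hormone receptor gene Ghr (-0.73 ± 0.14) and the growth factor gene Igf1 (-0.54 ± 0.16), with limma adjusted p of 0.00286, 0.00335 and 0.038. Igf2r, the maternally expressed receptor that clears Igf2, did not pass (0.38 at 3 months, limma adjusted p = 0.0532).

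Afp did not reach the median of the array in any liver. The gene lies on chr5:90490714-90508907 and has 5 probe sets, all under the median of their own array on all 12 arrays. Its promoter window, chr5:90490464-90490763 on the plus strand, held only 3 CpG dinucleotides and had a GC content of 40.0%.
Afp: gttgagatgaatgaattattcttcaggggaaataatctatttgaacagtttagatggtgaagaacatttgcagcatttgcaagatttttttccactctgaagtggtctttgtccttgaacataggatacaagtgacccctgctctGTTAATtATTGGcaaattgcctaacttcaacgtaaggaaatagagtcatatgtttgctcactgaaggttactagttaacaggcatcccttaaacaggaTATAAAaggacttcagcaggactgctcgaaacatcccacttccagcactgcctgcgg

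TATAAA matched at -7 in that window. GTTAAT, present in 7.1% of all promoters, matched at -105, and CCAAT matched on the other strand at -98. TGANTCA, found in 7.81% of promoters, had no match in the 3 windows printed.

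The brightest Afp readings were on 1416646_at. They were 11.1, 8.2 and 5.5 in Het_3M, 6.5, 23.5 and 3.4 in KO_3M, 9.6, 6.2 and 7.8 in Het_12M, and 5.7, 22.1 and 11.9 in KO_12M. The 2 highest were in mouse 2 of each knockout group, the other knockout livers lay among the controls, and the groups overlapped. The highest rank of any Afp probe set was the 31.44th percentile of its array. On the other 4 probe sets the signal ran from 0.6 to 15.7, and the groups overlapped except on 1436881_x_at, where KO_3M (1.0 to 1.1) lay below Het_3M (1.9 to 11.6). With no filter on dim probe sets none of the 5 passed in any comparison, with limma adjusted p from 0.199 upward.

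**Figure D4:**
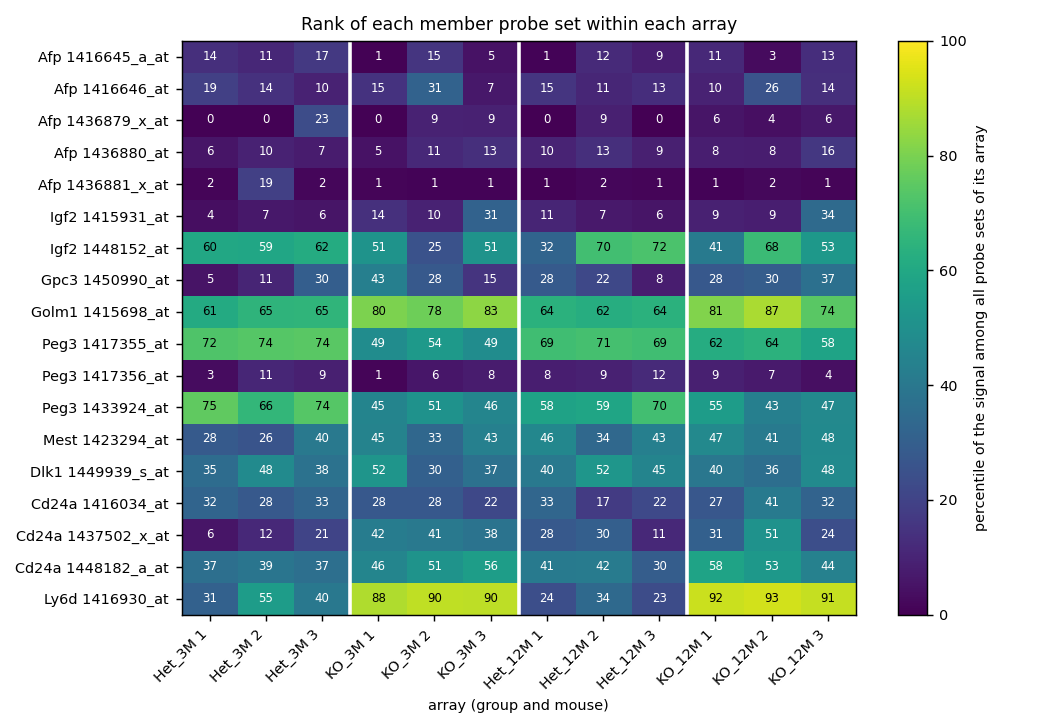
Percentile of each member probe set among all probe sets of its array, for the 12 arrays in group order, with the number printed in each cell. Ly6d sits between the 23rd and 55th percentile in heterozygous livers and at the 88th or above in knockout livers, and no Afp cell exceeds 31.

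Of the 17 tested genes that regulate Afp or belong to its albumin family, 1 was called higher and 2 lower at 3 months, against 9.67% and 11.8% of all tested genes, and 0 higher and 3 lower at 12 months, against 6.04% and 4.07%. Zbtb20, a repressor that shuts off Afp after birth in mice, was lower at 12 months, from 468.9 to 256.3 (-0.83 ± 0.19, limma adjusted p = 0.0101), and did not pass at 3 months (0.07, limma adjusted p = 0.817). The transcription factor gene Nfix was lower at 12 months (-1.11 ± 0.20, limma adjusted p = 0.00216). Hnf4a, the hepatocyte nuclear factor, was lower at both ages (-0.35 ± 0.12 and -0.39 ± 0.12, limma adjusted p = 0.0434 and 0.0471). Afamin (Afm), an albumin relative beside Afp, was lower at 3 months (-0.47 ± 0.13, limma adjusted p = 0.0173), and the homeobox gene Hhex was higher (0.80 ± 0.20, limma adjusted p = 0.0103). Albumin itself did not pass (0.0063 and -0.36, limma adjusted p = 0.983 and 0.246).

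Gpc3 was dim on every array and read higher in the older knockout livers. It encodes a heparan sulfate proteoglycan held on the cell surface by a lipid anchor and lies on chrX:52272426-52613974. The signal of 1450990_at was 3.9, 6.1 and 24.8 in Het_3M, 38.2, 19.6 and 7.5 in KO_3M, 23.3, 13.5 and 5.2 in Het_12M, and 23.7, 27.6 and 44.5 in KO_12M. The genotypes overlapped at 3 months, and at 12 months the lowest knockout liver, at 23.7, was just above the highest heterozygous liver, at 23.3. With no filter, limma gave 0.70 at 12 months and an adjusted p of 0.31.

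Of 14 other tested glypican and heparan sulfate genes, 1 was called higher and 3 lower at 3 months, against 9.67% and 11.8% of all tested genes, and 1 higher and 1 lower at 12 months, against 6.04% and 4.07%. Syndecan 1 (Sdc1), the main syndecan of hepatocytes, was higher at both ages (0.86 ± 0.14 and 0.61 ± 0.14, limma adjusted p = 0.000558 and 0.0101). Lower at 3 months were Sdc3 (-0.65 ± 0.15), Sdc2 (-0.53 ± 0.13) and Notum (-0.59 ± 0.15), a secreted enzyme first described as cutting glypicans in flies, with limma adjusted p of 0.00671, 0.00741 and 0.0125. Sdc4 was lower at 12 months (-0.98 ± 0.27, limma adjusted p = 0.0317).

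Cd24a, a sialoglycoprotein of progenitor, bile duct and immune cells, read higher in knockout livers on 1 probe set at both ages without passing the test. The gene lies on chr10:43579169-43584265. The signal of 1448182_a_at was 35.2, 38.7 and 35.1 in Het_3M, 41.8, 54.6 and 68.2 in KO_3M, 45.8, 43.2 and 25.8 in Het_12M, and 84.0, 69.8 and 57.3 in KO_12M. All knockout livers were above all heterozygous livers of their age. The log2 change was 0.42 ± 0.24 at 3 months (limma adjusted p = 0.231) and 0.68 ± 0.24 at 12 months (limma adjusted p = 0.0961). The probe set was tested because 4 arrays reached their median, all of them from knockout livers, while the heterozygous livers ranked between the 29.59th and 41.64th percentile, so its test gives no support for a difference.

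The 2 other Cd24a probe sets, both too dim to test, disagreed in young mice. On 1437502_x_at the signal was 4.1, 6.7 and 13 in Het_3M and 36.7, 35.7 and 33.9 in KO_3M, whereas on 1416034_at it was 28.0, 22.2 and 29.3 in Het_3M and 17.9, 19.2 and 13.8 in KO_3M. The first lay wholly above the controls and the second wholly below. With no filter, limma gave 1.12 (adjusted p = 0.022) for the first and -0.37 (adjusted p = 0.36) for the second. At 12 months both overlapped between genotypes, at 6.9 to 64.5 and 10.0 to 46.2.

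Ly6d had the widest range of all members. It encodes a small lipid-anchored surface protein of the Ly6 family, known from keratinocytes and early B cells, and lies on chr15:74762056-74763567. The signal of 1416930_at was 26.2, 71.6 and 40.3 in Het_3M and 365.4, 469.1 and 445.1 in KO_3M. At 12 months it was 17.5, 30.5 and 16.9 in Het_12M and 528.3, 627.8 and 473.1 in KO_12M. The heterozygous livers ranked between the 23.3rd and 55.3rd percentile of their arrays and the knockout livers between the 88.0th and 93.3rd. The knockout mean was 9.27 times the heterozygous mean at 3 months and 25.1 times at 12 months, or 2.89 ± 0.23 and 3.90 ± 0.23 on the log2(signal + 16) scale.

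The 2 knockout effects of Ly6d differed by 1.01 ± 0.32, also a description. Both genotypes contributed, since the heterozygous mean was 46.0 ± 23.2 at 3 months and 21.6 ± 7.7 at 12 months while the knockout mean was 426.5 ± 54.3 and 543.1 ± 78.4. Every KO_12M liver was above every KO_3M liver, the nearest pair being 473.1 and 469.1. The age change in heterozygous livers was -0.67, a description too, since these signals are part of the rise by which Ly6d was chosen. With scan session as a block the knockout values were 2.92 and 3.26, which differ by 0.33.

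Markers of B and plasma cells, among which Ly6d is known, were not called higher. Their summed signal was 351.5 to 369.2 in Het_3M and 316.5 to 371.0 in KO_3M, and 387.5 to 513.8 in Het_12M and 434.4 to 837.8 in KO_12M. Of the 8 on the array 4 were tested, and 0 were called higher at either age by limma, against 9.67% and 6.04% of all tested genes. Ms4a1 was lower at 3 months (-0.67 ± 0.22, limma adjusted p = 0.041), against 11.8% of all tested genes called lower. The bile duct and progenitor, stellate cell and fibroblast, macrophage and proliferation markers given with Golm1 had higher sums in the same groups as Ly6d. Their part in the Ly6d values was not tested.

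Other genes of the Ly6 family were mostly dim. Of 13 on the array besides Ly6d 4 were tested, and none was called at 3 months, against 21.4% of all tested genes. At 12 months, where 10.1% of all tested genes were called, Ly6i was called lower, from 86.4 to 9.1 (-2.00 ± 0.34, limma adjusted p = 0.00128). Its mean was 18.9 in Het_3M and 12.8 in KO_3M. It thus passed the filter only through the Het_12M arrays, where it was high, so its test gives no support for a difference. The median log2 change of the 4 was -0.26 at 3 months and -0.02 at 12 months.

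Genes with a profile like that of a member were found by the root mean square difference of centred log2 profiles over the 12 arrays, for the 3 members with the widest range of group means. Nearest to Ly6d were Bicc1 (0.49), which encodes an RNA-binding protein, Tinag (0.56), a basement membrane protein gene of the kidney tubule, and the annexin gene Anxa5 (0.57). Bicc1 averaged 3.6 and 7.1 in Het_3M and Het_12M and 172.6 and 164.5 in KO_3M and KO_12M, and Tinag 4.1 and 4.1 against 81.0 and 133.0. Nearest to Golm1 were Dcn and the transcription factor gene Jun (0.21 each) and the tropomyosin gene Tpm4 (0.23). Nearest to Peg3 were Wbp4 and Sfn (0.15 each) and Cphx3 (0.19), and Sfn, or stratifin, averaged 164.3 and 51.3 in the Het_3M and KO_3M groups and 151.0 and 104.4 in the Het_12M and KO_12M groups. These are descriptions over 12 arrays in 4 groups and carry no test.

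**Figure D5:**
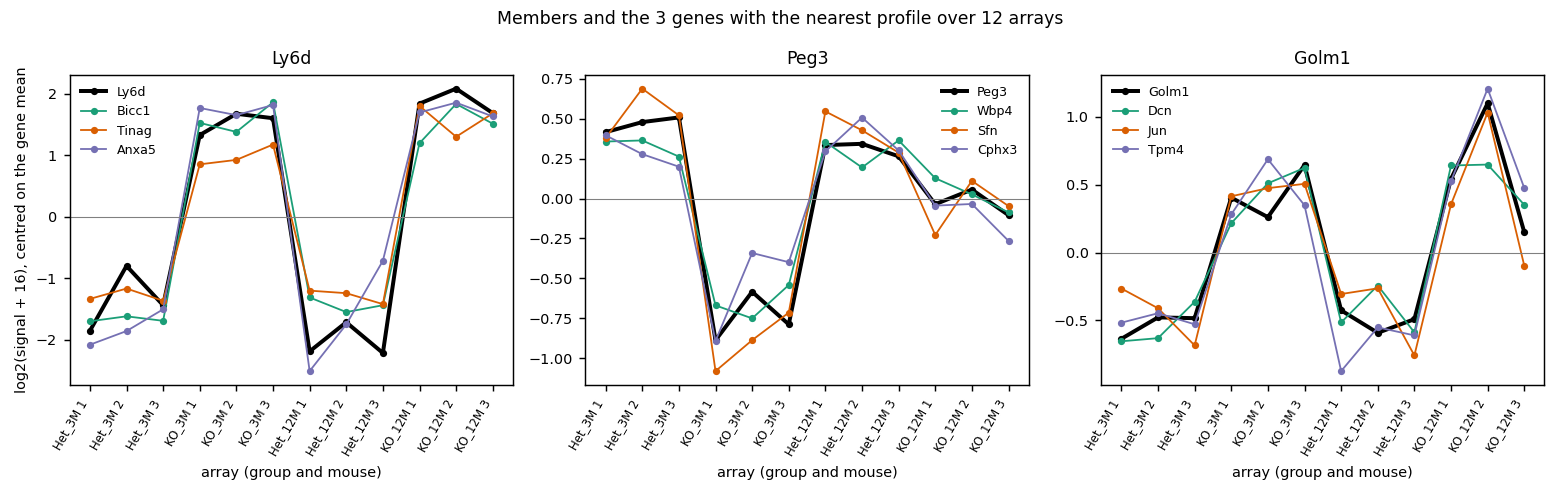
Centred log2(signal + 16) on the 12 arrays, in group order, of Ly6d, Peg3 and Golm1 (black) and of the 3 genes nearest to each (colours). The lines only join the arrays of 1 gene. Ly6d and its neighbours separate by genotype at both ages, and Peg3 and its neighbours are lowest on the KO_3M arrays.

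Other markers of liver tumours and fetal liver were called in each direction. Of 24 tested genes outside the members, 5 were called higher and 2 lower at 3 months, against 9.67% and 11.8% of all tested genes, and 5 higher and 1 lower at 12 months, against 6.04% and 4.07%. Their median log2 changes were 0.16 and 0.30, against -0.06 and -0.0035 over all tested genes. Lipocalin 2 (Lcn2), an iron-binding secreted protein, was higher by 5.42 ± 0.44 and 4.46 ± 0.44 (limma adjusted p = 6.4e-07 and 7.16e-06). Its mean was 4.9 in Het_3M and 18.1 in Het_12M, so it passed the filter only through knockout arrays. Its test therefore gives no support for a difference. The hyaluronan receptor gene Cd44 was higher by 1.29 ± 0.26 and 1.20 ± 0.26 (limma adjusted p = 0.00267 and 0.00687). With means of 31.0 in Het_3M and 28.4 in Het_12M, Cd44 has the same limit as Lcn2. The tubulin regulator Stmn1, also a proliferation marker, was higher by 0.71 ± 0.15 and 0.79 ± 0.15 (limma adjusted p = 0.00313 and 0.00229).

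At 3 months the aldolase gene Aldoc was higher (0.90 ± 0.17, limma adjusted p = 0.00155) and the fatty acid binding protein gene Fabp5 lower (-1.34 ± 0.21, limma adjusted p = 0.000395). At 12 months the desaturase gene Scd2 was higher (1.62 ± 0.26, limma adjusted p = 0.000712) and the chaperone gene Hspa5 lower (-0.72 ± 0.18, limma adjusted p = 0.0172). With means of 39.9 in Het_3M and 40.0 in Het_12M, Scd2 has the same limit as Lcn2. The remaining called genes of the list, named after their values were seen, were Epcam (1.43, limma adjusted p = 0.026) and Tbx3 (-0.69, limma adjusted p = 0.00841) at 3 months and Akr1b8 (0.58, limma adjusted p = 0.0254) at 12 months. Epcam, with means of 12.4 in Het_3M and 14.0 in Het_12M, also passed the filter only through knockout arrays.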

How the data were processed

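Liver RNA of 12 male mice, 3 per group, was measured on Affymetrix MOE430A arrays. The authors deposited 1 intensity per probe set, extracted by MAS 5.0 as a linear signal, per the submitters' processing notes and the series design. Each array's trimmed mean over the middle 2 to 98% of probe sets lay between 149.63 and 149.98, so the arrays came scaled, by settings that no source used here gives. The arrays' own experiment records were used only for scan sessions and fluidics records. Precision is limited by having 3 arrays a group.

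Of 22690 probe sets 64 were controls and were left out. A single symbol was given for 20393 probe sets, several for 691 and none for 1606. Current RefSeq symbols were found by gene ID for 20364. Arrays were brought to 1 trimmed mean, 16 was added and log2 taken. limma 3.58.1 in R 4.3.3 (lmFit, eBayes with an intensity trend) was fitted to all 12 arrays and 12977 probe sets with a mean for each of 4 groups, leaving 8 degrees of freedom. It was tested on simulated data. Gene lists used the probe set of highest mean log2 signal for each gene, which left 8228 genes, and their counts leave out the 10 members.

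Members and lists were chosen with earlier results of these data known. Named genes were every member and, per list and age, up to 4 called genes of smallest p in the commoner direction and 1 in the other. For the 3 members of widest range, the 3 nearest profiles were also named. Mouse numbers did not pair arrays: of 12 same-numbered pairs, 1 had deviations correlated above 0.1, so the numbers were taken as names only. Alternatives changed the offset (4 or 64), normalization, filter, variance model, weights, arrays, replicate block, session block, actin ratio and call rule. Tables and figures were made with pandas 2.3.3, numpy 2.4.6 and, for plots, matplotlib 3.10.9 in Python 3.11.15.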

Additional observations from a re-analysis of the deposited data

Results flagged for a closer look

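The age difference of Peg3 1417355_at ran in opposite directions in the 2 genotypes. Every heterozygous liver at 12 months lay below every heterozygous liver at 3 months, and every knockout liver at 12 months lay above every knockout liver at 3 months. The interaction, older minus younger knockout effect, was 0.88 ± 0.21 on the log2 scale and missed the threshold (limma adjusted p = 0.0594; 0.036 to 0.262 over the alternatives). Within the scan session shared by KO_12M mouse 3 and the KO_3M mice, the older liver read 92.4 and the younger 46.9 to 61.7. Within the session of the heterozygous livers, the older read 123.9 to 131.8 and the younger 139.3. No other member probe set had this opposition.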

How the results depend on the processing

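The 25 results of the tested members other than Ly6d were refitted under up to 28 other settings. Of 685 values, 648 kept their direction and their side of the threshold, 6 lost a call, 4 gained one and 27 turned sign. Of 139 descriptive Ly6d values, 7 were counted as moved by more than the spread between mice. The other 132 moved by less or belong to the age change in heterozygous livers, which kept its direction at -0.92 to -0.18. Leaving out 1 array in turn ended no call of Golm1 or Peg3. The lost calls of Golm1 and Peg3 stand with their results. The Peg3 age interaction passed with array weights (0.89, adjusted p = 0.036) and with the actin ratio (0.91, adjusted p = 0.0492). Cd24a 1448182_a_at at 12 months passed with array weights (0.80, adjusted p = 0.0337) and without the intensity trend (0.68, adjusted p = 0.0408). As it passed the filter only through knockout arrays, these calls of Cd24a give no support for a difference. As descriptions, the Ly6d change was 2.17 at 3 months and 2.82 at 12 months with the larger offset, and 4.45 at 12 months with the smaller one.

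No change that turned sign had been called, and the cause was not tested. Igf2 at 12 months turned to 0.34 with the actin ratio (-0.66 to 0.22 leaving out 1 array). Its age change in heterozygous livers turned to 0.028 with the larger offset, 0.026 with array weights, 1.02 with the actin ratio and 0.51 without the arrays with a fluidics error (-0.34 to 0.53 leaving out 1). For Golm1 the age change in heterozygous livers turned to -0.030 with quantile normalization, -0.023 with median scaling, -0.053 with the actin ratio and -0.022 without the 2 arrays of conflicting age label (-0.022 to 0.074 leaving out 1). Its age change in knockout livers turned to -0.15 with median scaling and -0.29 with the session block (-0.090 to 0.38 leaving out 1), and its interaction to -0.13 and -0.42 (-0.12 to 0.35 leaving out 1). For Cd24a the age change in heterozygous livers turned to -0.012 with quantile normalization, -0.011 with median scaling, -0.19 with the actin ratio and -0.041 without the fluidics errors (-0.073 to 0.21 leaving out 1).

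Counts of called probe sets moved with many settings. At 3 months the 2742 calls became 418 with the session block, 1820 with 1 probe set per gene (fewer tested), 1666 with the actin ratio, 1609 without the conflicting labels, 1811 without the fluidics errors and 1271 with a 2-fold filter with the groups apart; leaving out 1 array gave 1822 (without mouse 2 of KO_3M) to 2951. At 12 months the 1228 became 91 with the session block, 815 without the fluidics errors and 631 with the 2-fold filter (857 to 1244 leaving out 1). The 148 age calls in heterozygous livers became 61 with no filter, 56 per gene, 53 without trend, 361 with weights, 10 with the session block, 5 with the actin ratio, 81 without the conflicting labels, 7 without the fluidics errors and 228 by the 2-fold filter (20 to 185 leaving out 1, with 20, 49, 65 and 28 without mice 1 and 2 of Het_12M and of Het_3M). The 1149 age calls in knockout livers became 420 with quantile normalization, 2653 with median scaling, 330 with only the groups compared, 688 with the session block, 40 with the actin ratio, 412 without the conflicting labels, 345 without the other fluidics script and 572 by the 2-fold filter (538 to 1051 leaving out 1, with 581, 668, 538 and 709 without mice 1 and 3 of KO_12M and of KO_3M). The 93 interaction calls became 260 with median scaling, 43 with no filter, 35 without trend, 223 with weights, 18 with the session block, 58 without the conflicting labels and 26 without the fluidics errors (7 to 121 leaving out 1, with 31 and 7 without mice 1 and 2 of Het_12M, 45, 22 and 35 without mice 1, 2 and 3 of Het_3M, 47 without mouse 1 of KO_12M and 42 without mouse 2 of KO_3M). Median scaling also turned the split of higher calls, from 1242 of 2742 to 2009 of 2813 at 3 months, from 761 of 1228 to 546 of 1102 at 12 months, from 738 of 1149 to 286 of 2653 for age in knockout livers and from 51 of 93 to 31 of 260 for the interaction. For age in knockout livers quantile normalization gave 216 higher of 420.

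Mouse number as a replicate block changed no member call and gave 2572, 1125, 83, 885 and 55 calls in the order above. Same-numbered arrays shared deviations from their group means with correlations of -0.231 to 0.176, against -0.174 to 0.15 for other pairs. The fluidics alternatives were added after the data were seen. A dim probe set limits what can be read: 12 of 18 member probe sets, all 5 of Afp among them, were too dim to test.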
